A study of Mus musculus with 207 samples.

Results

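The solute carrier genes that were expressed in the cecum are described here over the mice of a Collaborative Cross (CC) breeding population. A gene was a member when its symbol started with Slc, the prefix of this gene superfamily, and when the probe with its highest mean had a mean log2 intensity of 7 or more over all mice. Of 370 Slc genes on the array, 138 reached that level, and 6 of them (among 8 carriers of sodium, chloride, iron and monocarboxylates that the rule set aside) were left out, which gave 132 members of the 7471 genes of any family at that level and of 19057 named genes in all. Members were thus selected on the mean level over all mice, and levels are given as a description without a test. At the edge of the rule, Slc35a2 (7.03), Slc7a7 (7.03) and Slc12a9 (7.02) were just inside, and Slc34a2 (6.98), Slc2a8 (6.94) and Slc4a3 (6.93) were just outside.

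Cecal RNA of 205 mice of labelled sex (49.3% female, 50.7% male) and of 2 further mice whose labels gave no clear sex was hybridized to 1 Illumina Mouse WG-6 v2 array per mouse. The mice came from partly inbred lines that descend from common and wild-derived inbred founder strains. Their labels gave no treatment and no age. The study's text describes behavioural and physiological phenotyping of this breeding population. The first number of the animal identification was taken as the line, which gave 113 lines, of which 92 held at least 1 female and 1 male (185 mice). Every value by line rests on that reading, which no label states and which gives more lines than the study's text counts. Lines were kept in separate cages, so that shared genotype and shared cage cannot be told apart within a line.

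Solute carriers are membrane proteins that move nutrients, ions, metals, vitamins and drugs across the cell surface or across the membranes of mitochondria, peroxisomes, the endoplasmic reticulum and the Golgi apparatus. Most work as exchangers, cotransporters driven by ion gradients, or facilitators that let a solute run down its own gradient. In the large intestine the epithelium uses them to take up salt, short-chain fatty acids and vitamins, to secrete chloride and bicarbonate, to load its mucus with sugars and to handle bile acids that escaped the ileum.

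The RNA came from cells released by a chelating solution that loosens epithelium, and all 10 absorptive colonocyte markers (among them Car4, Aqp8 and Krt20) had a mean of 7 or more. Markers of other cells were present too, with 8 of 10 goblet cell genes, 8 of 10 smooth muscle genes, 4 of 8 B and plasma cell genes and 6 of 10 small intestinal enterocyte genes at that level, and so were 6 of 8 proliferation genes, 3 of 7 adipocyte genes and 1 of 2 red cell genes, while Cnn1, Atoh1 and Ms4a1 were under it. The mean of the 2 exocrine pancreas genes at that level ranged between 6.28 and 14.99 over mice, with a median of 7.10. Intensity was without a depth, and array medians ranged between 41.5 and 103.7. On 8 arrays (6 female, 2 male) some intensities were below 0. Where stated, results are also given without these arrays, and all other values include them. In a tissue sample, fewer cells of a type and less RNA per cell cannot be told apart.

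Members covered 11 substrate classes. The mean log2 intensity of the members ranged between 7.02 and 13.76 with a median of 8.63, where the 7471 genes had a median of 8.56. It was 10 or more for 24 members, between 8 and 10 for 61 and under 8 for 47. Probes differ in how brightly they bind, so that levels of different genes have no exact order, and the class medians only describe where the probes of each class lay. Metals (15 of 29 Slc genes measured), vitamins, choline and haem (12 of 20), mitochondrial carriers (27 of 46) and secretory-pathway carriers (17 of 32) had a majority of their measured genes among the members. Carriers of organic ions and bile acids (12 of 56), amino acids and peptides (14 of 64), inorganic ions (12 of 50), sugars and polyols (7 of 26) and nucleosides (1 of 9) had mostly genes under the level of 7. The 8 carriers that the rule set aside were left out of both numbers in these counts by class.

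**Figure D1:**
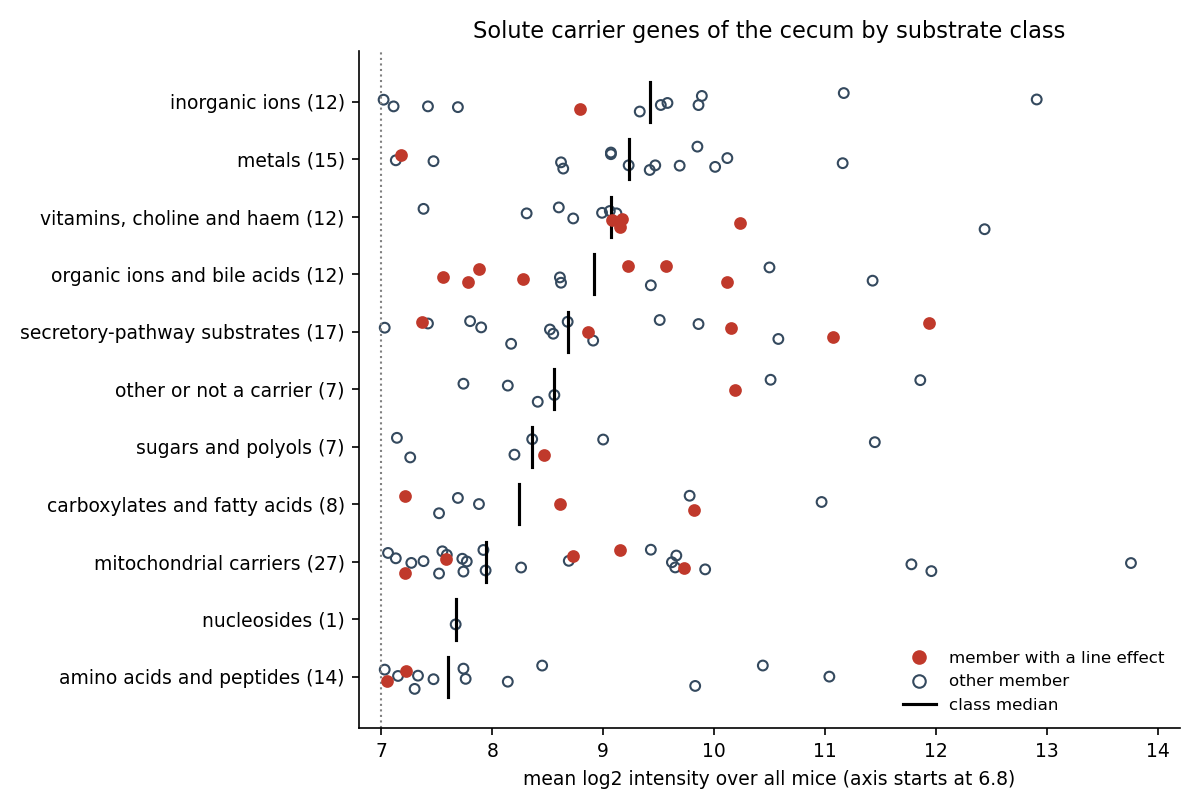
Mean log2 intensity over all mice of each of the 132 members (points), in rows by substrate class with the number of members in brackets, and the class median as a bar. Filled points are the 30 members whose level differed by line, and class medians lie between 7.61 for amino acids and peptides and 9.42 for inorganic ions.

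Among the carriers of inorganic ions, Slc12a2, the basolateral sodium, potassium and chloride cotransporter that feeds chloride secretion, averaged 12.91 ± 0.76, and Slc4a2, a chloride and bicarbonate exchanger, averaged 11.17 ± 0.42 (log2 intensity, SD over all mice, as in the rest of this paragraph and the next). Of the metal carriers, Slc39a4, which takes up zinc from the lumen, averaged 11.16 ± 0.75. Slc11a1, a metal carrier of the phagosome best known in macrophages, averaged 10.12 ± 0.90, and its highest mouse fell to 11.81 without the 8 arrays, against 14.24 with them. The vitamin and choline class was led by Slc44a1, a choline carrier, at 12.44 ± 0.50 and by Slc44a4, known in the human colon to take up thiamine pyrophosphate, at 10.23 ± 0.91. Slc51a, a subunit of the basolateral bile acid exporter, averaged 11.43 ± 0.60, and Slc22a5, which takes up carnitine, averaged 10.50 ± 0.48.

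Inside the cell, Slc25a5, an ADP and ATP exchanger of the inner mitochondrial membrane, averaged 13.76 ± 0.30, and Slc25a20, which carries acylcarnitines into mitochondria, averaged 11.96 ± 0.39. In the secretory pathway, Slc35c1, which brings GDP-fucose into the Golgi apparatus, averaged 11.94 ± 0.58 and Slc37a2, a sugar phosphate exchanger of the endoplasmic reticulum, averaged 11.07 ± 0.94. Of the carriers of sugars and polyols, the glucose carrier Slc2a1 averaged 11.45 ± 0.56 and the sugar facilitator Slc50a1 averaged 9.0 ± 0.38. Slc13a2, which takes up citrate and succinate, averaged 10.97 ± 0.60, and Slc27a2, a carrier and activating enzyme of very long-chain fatty acids, averaged 9.82 ± 0.66. Slc6a6, the taurine carrier, averaged 11.04 ± 0.42, and Slc38a2, a neutral amino acid carrier, averaged 10.44 ± 0.59. The only nucleoside carrier among the members, Slc29a1, averaged 7.67 ± 0.59, and its SD was 0.30 without the 8 arrays. In the remaining class, Slc9a3r1 is a scaffold of apical transporters and no carrier itself (11.86 ± 0.56), and Slc22a18, an imprinted gene, averaged 10.51 ± 0.58.

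The SD over mice ranged between 0.25 and 1.36 with a median of 0.55, where the 7471 genes had a median of 0.49. Without the 8 arrays the median of the members was 0.49, and no value without these arrays is given for the 7471 genes. For 8 members the SD was 1 or more. Slc23a3, a relative of the ascorbate carriers, had an SD of 1.36, with a lowest, median and highest mouse of 7.12, 8.83 and 13.12. Its highest mouse was 12.56 without the 8 arrays. Slco2a1, which takes prostaglandins into cells, had an SD of 1.30 (4.0, 9.68 and 10.89), where 4.0 is the floor set for intensities. Its lowest mouse was 5.99 without the 8 arrays. Slc23a2, the ascorbate carrier of the basolateral face, had an SD of 1.15 (6.16, 9.32 and 11.24). Slco2a1 and Slc23a2 thus had their long tail on the low side, and Slc23a3 had it on the high side.

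The other members with an SD of 1 or more were Slc35b1, which exchanges ATP for ADP across the endoplasmic reticulum (1.08), Slc7a9, a cystine and dibasic amino acid carrier of the small intestine and kidney (1.07), Slco2b1, an organic anion carrier (1.03), Slc25a3, the mitochondrial phosphate carrier (1.03), and Slc15a2, a proton-coupled peptide carrier (1.02). Slc20a1, a phosphate carrier, and Slc37a2 followed at 0.94 each. Without the 8 arrays, Slc25a3 (0.87) and Slc15a2 (0.99) were under 1. The line ICC, defined next, was -0.08 for Slc7a9, 0.15 for Slc25a3 and 0.01 for Slc20a1, and none of these passed the line test.

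**Figure D2:**
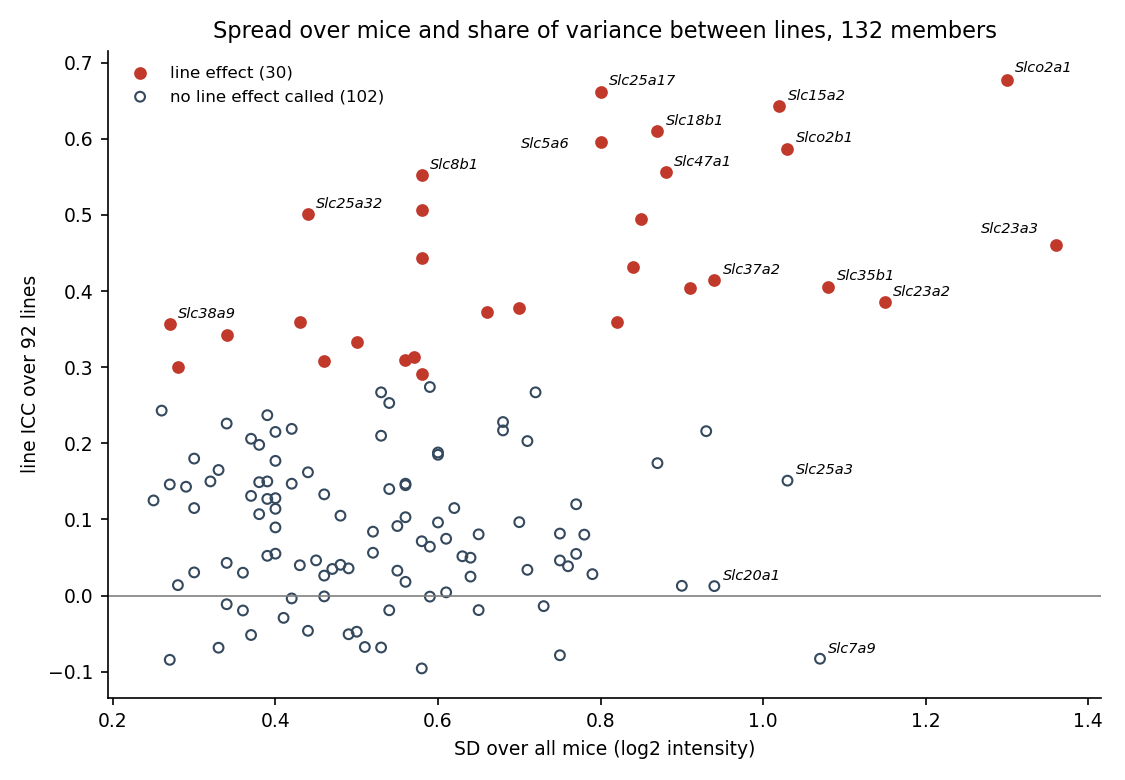
SD of log2 intensity over all mice (x axis) against the line ICC over 92 lines (y axis) for the 132 members, with the 30 members that passed the line test filled. Slco2a1 (SD 1.30, ICC 0.68) and Slc7a9 (SD 1.07, ICC -0.08) show that a wide spread went with either extreme of the ICC.

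To ask which members differed by line, the line intraclass correlation (ICC, the share of variance of sex-centred values that lay between lines) was estimated over 92 lines with its 95% interval, and an F-test of line was adjusted over all 45281 probes by the Benjamini-Hochberg procedure. At an adjusted p under 0.05, 30 of 132 members differed by line (22.7%), where 16.2% of the 7471 genes and 5.74% of all probes did. An ICC of 0.3 or more was reached by 28 members (21.2%), against 14.7% of those genes and 5.06% of probes. The median ICC of the members was 0.13, where the 7471 genes had 0.09, and 20 members had an estimate below 0. Of the 5 X-linked members none passed (adjusted p from the F-test). The array's probes over founder SNPs were not removed from the deposited table, so that a transcript level and a sequence variant under the probe cannot be told apart from the signal of a single probe.

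By class, the carriers of organic ions and bile acids had 7 of 12 members with a line effect and a median ICC of 0.32. Vitamins, choline and haem had 4 of 12, carboxylates and fatty acids 3 of 8, secretory-pathway carriers 5 of 17 and mitochondrial carriers 5 of 27. Amino acids and peptides had 2 of 14, which were Slc38a9 and Slc15a2, and Slc15a2 reached the level of 7 only through the mice where it was high. A single member passed in each of the classes of inorganic ions (Slc8b1), metals (Slc39a9), sugars and polyols (Slc2a13) and others (Slc66a2). The classes were not tested against each other.

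The 7 of the organic ion class were Slco2a1, Slc18b1, Slco2b1, Slc47a1, Slc22a4, Slco4a1 and Slc17a4. Slco2a1 (chromosome 9, 103007061 to 103096002, GRCm38.p6, as for all positions) had the highest ICC of the members, 0.677 (95% interval 0.55 to 0.774, adjusted p = 1.52e-11). Its 92 line means ranged between 5.07 and 10.43 with a median of 9.52, and the widest step between neighbouring lines that left at least 5 lines on each side, 6.52 to 7.30, left 10 lines below it (levels given for other members are the middle of the step found in the same way). In all 10 the female and the male were both below the middle of that step, in 80 lines both were above it, and 2 lines were split. The 3 lowest lines read 6.15 (female) and 4.0 (male) in line 3011, 6.17 (female) and 6.01 (male) in line 792, and 5.99 (female) and 6.21 (male) in line 1605, where the male of line 3011 was among the 8 arrays. The 3 highest lines had females between 10.22 and 10.54 and males between 10.12 and 10.64. Without the 8 arrays the ICC was 0.675, and with ranks turned into normal scores, which shorten the low tail, it was 0.326 (adjusted p = 0.0131 by the F-test).

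Slc18b1 (chromosome 10, 23796859 to 23827969), a vesicular carrier of polyamines, ranged between 5.67 and 9.54 over mice with a median of 8.14. Its ICC was 0.61 (0.465 to 0.724, adjusted p = 6.2e-09). Both mice were below 6.48 in 10 lines and above it in 74, and 8 lines were split between a low and a high mouse. In line 1605 the female read 5.94 and the male 5.95, and in line 5168, the highest, they read 8.89 and 9.28.

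Slco2b1 (chromosome 7, 99657804 to 99711340) had an ICC of 0.587 (0.436 to 0.706, adjusted p = 3.57e-08), with a lowest, median and highest mouse of 6.46, 10.34 and 11.67. Both mice were below 8.83 in 4 lines and above it in 81, and 7 lines were split, with the female as the low mouse in all 7. The 4 lowest lines included line 2558 (6.66 in the female, 6.87 in the male) and line 780 (6.51 in the female, 7.04 in the male). Of single mice, 11 females (10.9%) and 4 males (3.85%) were below 8.83. These counts and that of the split lines were chosen after the values were seen and were not tested, and the difference of the means of Slco2b1 between the sexes did not pass the limma test (female minus male -0.26, SE 0.14, p = 0.0622, adjusted p = 1.0, and -0.27 with the line as a block, adjusted p = 1.0).

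Slc47a1 (chromosome 11, 61343400 to 61378842), which exports organic cations in exchange for protons, had an ICC of 0.556 (0.398 to 0.682, adjusted p = 3.37e-07). It was low in both mice of 11 lines, high in both of 72 and split in 9 at a level of 7.48. The highest lines were wide apart within the pair, with 9.0 in the female and 11.90 in the male of line 1234, and 11.51 in the female and 8.91 in the male of line 863. Slc22a4 (chromosome 11, 53983115 to 54030040), a carrier of ergothioneine and organic cations, had an ICC of 0.495 (0.325 to 0.635, adjusted p = 1.29e-05), with both mice below 6.57 in 8 lines and above it in 73. Its lowest line read 6.01 in the female and 6.16 in the male, and its highest read 8.90 in the female and 9.30 in the male. Slco4a1, an organic anion carrier, had 0.333 (adjusted p = 0.0124), which fell to 0.07 when its probes were averaged, and Slc17a4, an anion carrier, had 0.31 (adjusted p = 0.0244, F-test).

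**Figure D3:**
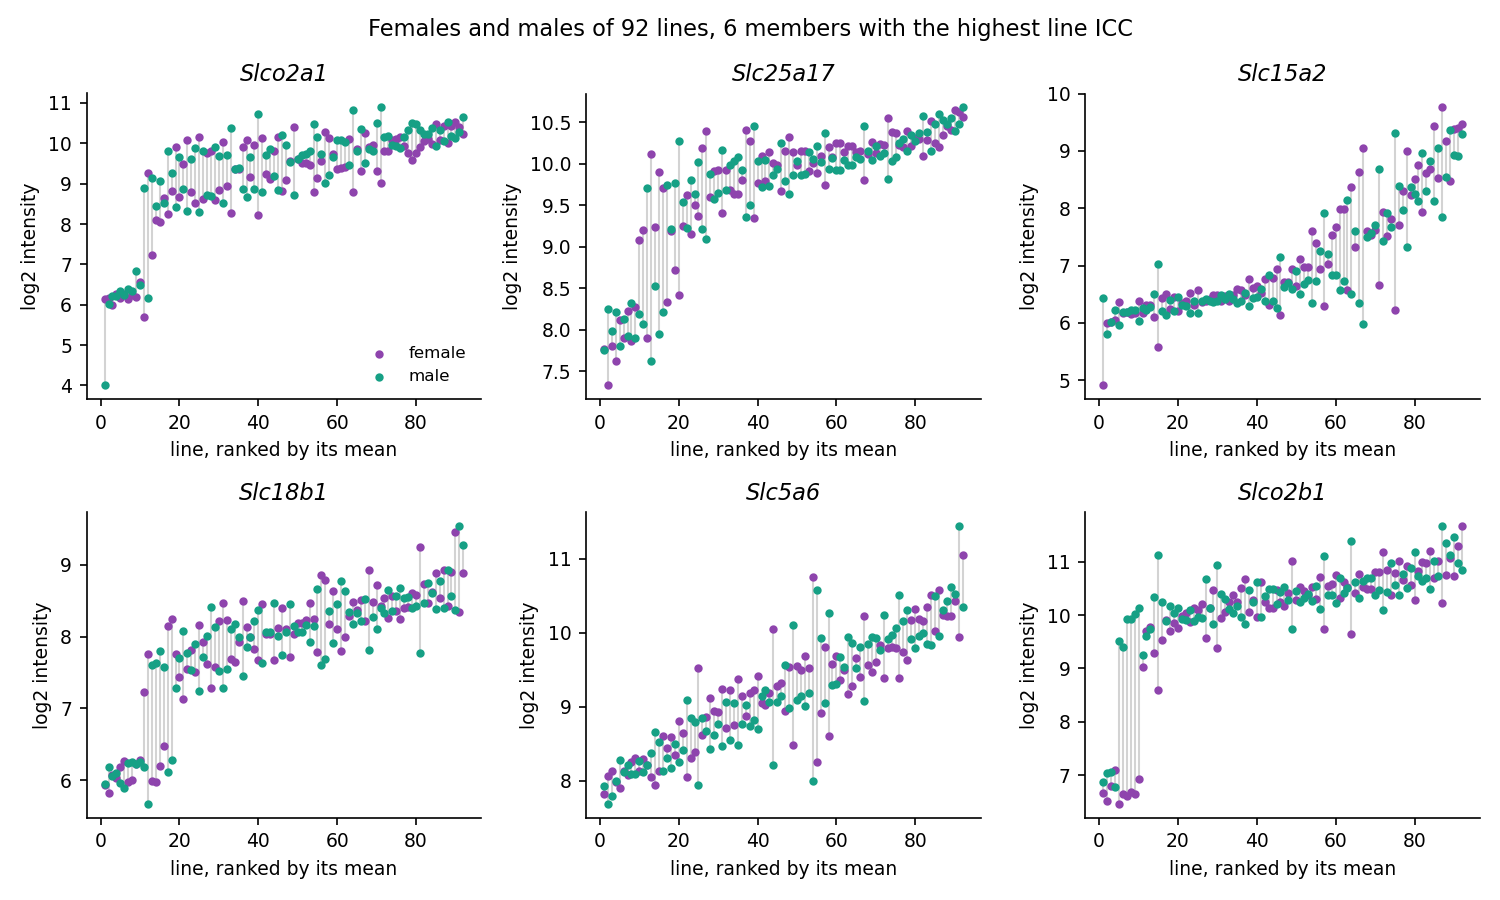
Log2 intensity of the females and the males (points, joined by a line within a breeding line, with mice of the same sex averaged) in each of 92 lines, ranked by line mean, for the 6 members with the highest ICC. Slco2a1 and Slc18b1 each have a low group of 10 lines with both mice under the level of 7. Whether their probes read above background there was not tested. Slco2b1 has 4 lines low in both mice and 7 split, Slc25a17 has 9 lines low in both mice and Slc15a2 is high in a minority of lines.

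Slc25a17 (chromosome 15, 81318921 to 81360765) belongs to the mitochondrial carrier family but carries cofactors into peroxisomes. It ranged between 7.33 and 10.75 over mice with a median of 9.99, and its ICC was 0.662 (0.53 to 0.763, adjusted p = 6.56e-11). Both mice were below 8.37 in 9 lines, above it in 76, and 7 lines were split. Lines 754 (7.77 in the female, 7.76 in the male) and 205 (7.81 in the female, 7.99 in the male) were among the lowest, and line 3087 (10.57 in the female, 10.68 in the male) was the highest. The next mitochondrial carriers by ICC were Slc25a32, a carrier of folate or FAD, at 0.501 (0.332 to 0.639, adjusted p = 9.2e-06) and Slc25a24, an exchanger of ATP-magnesium for phosphate, at 0.432 (0.252 to 0.584, adjusted p = 0.000297). Slc25a32 spread little (SD 0.44) and lost the call with its probes averaged, with an ICC of 0.16. Slc25a24 was low in both mice of 6 lines, of which line 739 read 6.67 in the female and 7.13 in the male. Slc25a16 (0.36) and Slc25a26 (0.30) also passed (F-test, adjusted p = 0.00506 and 0.0322). They held the call in 10 (Slc25a16) and 9 (Slc25a26) of 12 alternatives.

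Slc15a2 (chromosome 16, 36750161 to 36785158) had the reverse form, with most lines near its lower level. Its mean of 7.05 was above its median, so that it reached the level of 7 only through the mice where it was high. Over mice it ranged between 4.87 (5.81 without the 8 arrays) and 9.83 with a median of 6.59, and its ICC was 0.643 (0.506 to 0.748, adjusted p = 3.84e-10). Both mice were above 8.61 in 4 lines, below it in 75, and 13 lines were split. Line 1141 was the highest, with 9.47 in the female and 9.30 in the male, and line 680 was among the lowest, with 6.02 in the female and 6.01 in the male. Slc38a9, a lysosomal arginine sensor, differed far less in size (SD 0.27) at an ICC of 0.357 (adjusted p = 0.00559, F-test). It held the call in 8 of 12 alternatives, and its ICC was 0.149 with its probes averaged.

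Of the vitamin carriers, Slc5a6 (chromosome 5, 31036036 to 31048924), the sodium-coupled carrier of biotin and pantothenate, had an ICC of 0.596 (0.447 to 0.713, adjusted p = 1.85e-08). It ranged between 7.69 and 11.44 over mice with a median of 9.09, and its widest step between line means with at least 5 lines on each side was 0.14, against 0.78 for Slco2a1. Line 3564 was the lowest, with 7.82 in the female and 7.93 in the male, and line 690 the highest, with 11.05 in the female and 10.34 in the male. That female was among the 8 arrays, and without them the ICC was 0.605. Slc23a3 (chromosome 1, 75125541 to 75135223) had an ICC of 0.46 (0.284 to 0.607, adjusted p = 8.18e-05), and its highest line mean was 12.07, with 12.56 in the female and 11.58 in the male of line 1141, while line 821 read 7.84 in the female and 7.37 in the male. Slc23a2 had 0.385 (adjusted p = 0.00206), with line 5019 at 6.24 in the female and 6.52 in the male, and Slc44a4 had 0.404 (adjusted p = 0.000966, F-test).

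The secretory-pathway members with a line effect were Slc35e3 (ICC 0.444), Slc37a2 (0.414), Slc35b1 (0.406), Slc35d2 (0.36) and Slc35c1 (0.291), at adjusted p between 0.000177 and 0.0405 by the F-test, and Slc35c1 lost the call in 6 of 12 alternatives. Slc37a2 ranged between 6.28 and 12.74 over mice, and only 4 lines were low in both mice at 9.68. In its 3 lowest lines a single mouse was far down, with 6.50 in the female and 9.15 in the male of line 863, 6.43 in the female and 9.50 in the male of line 810, and 10.87 in the female and 6.28 in the male of line 1234. These 3 mice were the highest or lowest of all mice for many members (19 for the male of line 1234, 19 for the female of line 810 and 11 for the female of line 863), and lines 1234 and 863 had the highest and second highest line means of the small intestinal list described at the end, whose part was not tested. Without the 3 mice, an alternative added after seeing the data, the ICC over 89 lines was 0.357 for Slc37a2 and 0.648 for Slc47a1 (adjusted p = 0.00649 and 4.78e-10, F-test), and 35 members passed, 29 of the 30 among them. Slc35b1 (chromosome 11, 95384856 to 95391776) was low in both mice of 2 lines, of which line 691 read 6.60 in the female and 6.93 in the male and line 125 read 7.13 in the female and 7.14 in the male. Its ICC was 0.614 among animals whose second identification number was under 100 (the low number series) and 0.105 among the rest (the high series), where the F-test did not pass (adjusted p = 0.668).

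Of the other classes, Slc8b1, a mitochondrial exchanger of sodium for calcium, had an ICC of 0.552 (0.394 to 0.679, adjusted p = 4.24e-07), with line means between 7.60 and 9.60. Slc2a13, a proton-coupled carrier of inositol, had 0.506 (0.338 to 0.643, adjusted p = 7.08e-06), with line 754 the highest at 9.85 in the female and 9.64 in the male. Slc16a6, a monocarboxylate carrier, had 0.378, Slc27a2 had 0.373 and Slc16a9 had 0.314 (adjusted p between 0.00269 and 0.0221). Slc39a9, a zinc carrier of the Golgi apparatus (0.342), and Slc66a2 (0.308) were called with small spreads of 0.34 and 0.46. These 5 members lost the call in at least 2 of 12 alternatives each, most often within a single number series.

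The second number of the animal identification was under 100 for 116 mice and 100 or more for 90, with no line in both series, and what the series mean is not stated. Within the low series (51 lines) 20 members passed and within the high series (41 lines) 16 passed. All 30 members had an ICC above 0 in both series, and 18 had 0.3 or more in both. Slco2a1 had 0.72 in the low and 0.64 in the high series, Slc25a17 had 0.728 and 0.597, and Slc15a2 had 0.619 and 0.668. The low-series ICC was the smaller for Slc25a24 (0.23 against 0.647), Slc35d2 (0.22 against 0.609) and Slc39a9 (0.142 against 0.469). Whether the series differed in ICC was not tested. No member differed in level between the series by limma (lowest adjusted p 0.907, 9 members at an unadjusted p under 0.05).

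A second probe of the same gene gives a further reading of a line effect. A further probe with a mean of 7 or more was present for 28 members (33 probes). Of the 30 members with a line effect, 6 had such probes (7 probes), and 4 of the 7 passed the line test. Those were both further probes of Slco2a1 (ICC 0.716 and 0.441, with correlations of 0.848 and 0.939 to the brightest probe over mice), the further probe of Slc25a24 (0.461, correlation 0.966) and that of Slc2a13 (0.331, correlation 0.824). The further probes of Slc37a2 (0.276), Slc35c1 (0.244) and Slc27a2 (0.078) did not pass. Slc15a2 had a dimmer further probe with a mean of 6.91, an ICC of 0.68 and a correlation of 0.846.

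Among the 22 members without a line effect that had further probes at that level, the probes of 2 members passed. Slc44a1 differed by line at a probe with a mean of 8.30 (ICC 0.425, adjusted p = 0.000399) but not at its brightest probe (-0.05), and both probes had a correlation of -0.139 over mice. Slc22a5 differed at a probe with a mean of 9.04 (0.342, adjusted p = 0.00941) and at one with a mean of 6.94 (0.414), against 0.105 at its brightest. For 24 of the 30 members with a line effect no further probe reached 7, and 2 of these 24, Slc15a2 and Slc23a2, had a dimmer further probe that passed the line test. The dimmer probes of Slc47a1, Slc66a2, Slc16a9, Slco4a1, Slc38a9, Slc25a32 and Slc16a6 did not pass, with ICCs between -0.095 (Slco4a1) and 0.237 (Slc16a9). The remaining members of the 24 had no further probe.

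**Figure D4:**
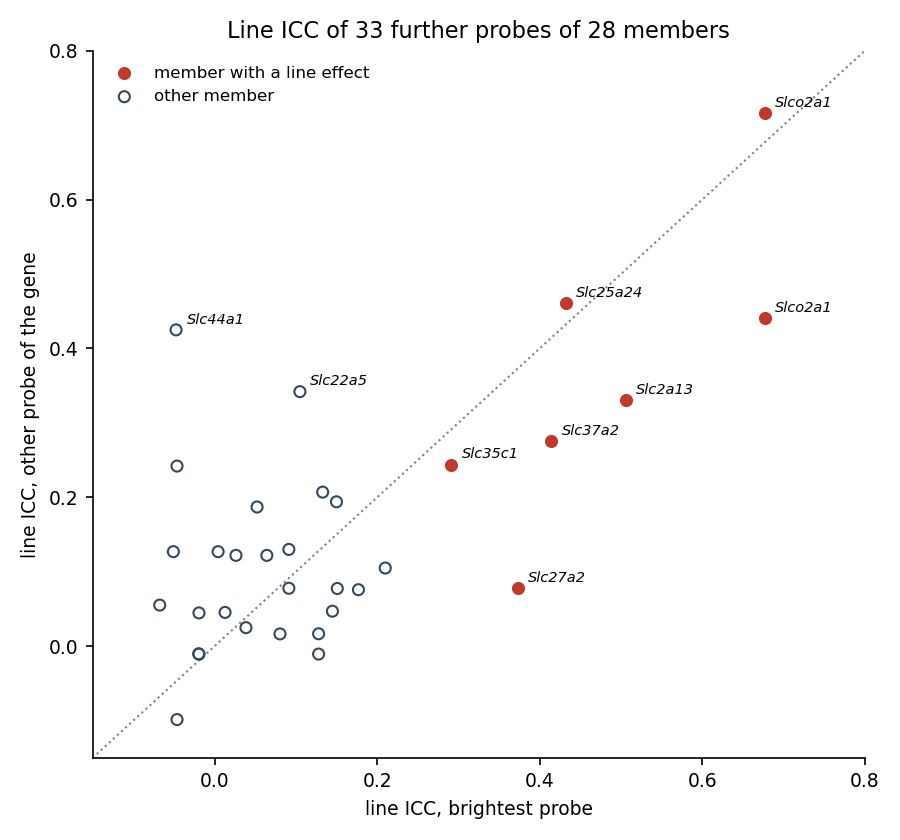
Line ICC at the brightest probe of a gene (x axis) against the ICC at each further probe with a mean of 7 or more (y axis) for 33 probes of 28 members, with the dotted line marking equality. Slco2a1, Slc25a24 and Slc2a13 are high on both axes, while Slc27a2 is high on the x axis only and Slc44a1 on the y axis only.

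No member passed the test of the sexes. In limma over the 205 mice, 0 of 132 members passed at an adjusted p under 0.05, where 0.0353% of all probes (16) and 0.0803% of the 7471 genes (6) did. At an unadjusted p under 0.05 there were 6 members (4.55%), where the 7471 genes had 1.95%. Differences of all members, female minus male, were between -0.26 and 0.31. In simulated data limma called 22 of 50 probes with a planted difference of 0.25 and 48 of 50 with 0.5. Differences as small as those seen here could thus be missed. Slc51b, the smaller subunit of the bile acid exporter, averaged 9.59 ± 0.74 in females and 9.28 ± 0.73 in males (± SD), and the means were 0.31 apart (SE 0.10, p = 0.00233, adjusted p = 1.0). With 10 principal components as covariates, an alternative added after the data were seen, Slc51b passed (difference 0.33, adjusted p = 0.0171) and was the only member to do so. Its partner Slc51a averaged 11.48 ± 0.66 in females and 11.40 ± 0.53 in males. The other 5 were lower in females, by 0.11 to 0.16, and were Slc27a4, Slc1a4, Slc9a3r1, Slc15a4 and Slc25a20. Under the line as a block the count stayed at 0. Of 132 members, none had a difference between the sexes that itself differed between the number series in limma (lowest adjusted p 0.819, 12 members at an unadjusted p under 0.05).

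Some carriers work as partners, and 4 of 16 pairs written down had both genes among the members. Slc51a and Slc51b form one exporter, and bile acids are known to raise both genes through the nuclear receptor FXR. Over the 92 line means they had a Pearson correlation of 0.476 (permutation p = 1e-05, the smallest that 100000 permutations give, adjusted p = 4e-05) and a Spearman correlation of 0.416 (permutation p = 6e-05, adjusted p = 0.00012). Without the 2 lines farthest from the median of Slc51a the Pearson value was 0.431, and it was 0.502 in the low and 0.436 in the high number series. Both genes also went with the small intestinal marker list (0.381 for Slc51a, 0.333 for Slc51b), whose part in the correlation was not tested. Neither gene differed by line.

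The promoters of Slc51a and Slc51b are printed because these subunits moved together, from 250 bases before to 50 after the RefSeq start (GRCm38.p6). Capitals mark the nuclear receptor half-site AGGTCA on either strand, which is also each arm of the inverted repeat that was searched beside it. It occurred once in each, on the reverse strand in Slc51a (as TGACCT) and on the printed strand in Slc51b, and 16.3% of 32851 promoters of this length held it. The inverted repeat AGGTCANTGACCT occurred in neither and in 3 of the 32851.
Slc51a, chr16:32487830-32488129, minus strand: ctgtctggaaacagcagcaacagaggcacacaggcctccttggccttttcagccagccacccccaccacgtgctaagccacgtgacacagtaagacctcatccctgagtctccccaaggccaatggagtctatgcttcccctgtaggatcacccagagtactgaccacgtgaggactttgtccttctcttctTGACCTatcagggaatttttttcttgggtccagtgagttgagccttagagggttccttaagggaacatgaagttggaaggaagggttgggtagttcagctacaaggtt
Slc51b, chr9:65422724-65423023, minus strand: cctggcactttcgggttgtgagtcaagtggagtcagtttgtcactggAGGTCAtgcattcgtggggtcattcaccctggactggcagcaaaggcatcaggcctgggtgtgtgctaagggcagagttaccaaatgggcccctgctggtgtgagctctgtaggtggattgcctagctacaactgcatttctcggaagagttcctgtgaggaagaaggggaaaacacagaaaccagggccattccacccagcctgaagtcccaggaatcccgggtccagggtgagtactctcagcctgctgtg

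Slc39a4 brings zinc into the cell and Slc30a1 exports it, and metal-bound MTF1 is known to raise Slc30a1. Their line means had a Pearson correlation of 0.385 (permutation p = 0.00018, adjusted p = 0.00036) and a Spearman correlation of 0.42 (permutation p = 2e-05, adjusted p = 8e-05), and 0.368 without the 2 farthest lines. The low and high series gave 0.348 and 0.444. Slc30a1 averaged 9.23 ± 0.45 (SD over all mice). The promoter of Slc30a1 is shown for the metal response core, TGCACNC or TGCGCNC on either strand, in capitals. The lower RefSeq coordinate of the gene is 191906697, and the printed stretch was set on a start that lies after it. One match to each form lay on the reverse strand, without overlap, and 25.7% of promoters held at least 1 match to either.
Slc30a1, chr1:191906531-191906830, plus strand: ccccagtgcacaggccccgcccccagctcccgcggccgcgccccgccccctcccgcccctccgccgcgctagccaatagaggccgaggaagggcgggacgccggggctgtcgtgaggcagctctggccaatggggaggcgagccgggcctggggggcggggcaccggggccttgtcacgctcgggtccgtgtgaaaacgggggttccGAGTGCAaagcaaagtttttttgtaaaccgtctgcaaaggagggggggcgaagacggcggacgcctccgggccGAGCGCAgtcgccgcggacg

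Slc22a4 and Slc22a5 have lower coordinates 118.6 kb apart on chromosome 11. Their line means had a Pearson correlation of 0.319 (permutation p = 0.00213, adjusted p = 0.00284) and a Spearman correlation of 0.322 (permutation p = 0.0018, adjusted p = 0.0024), and 0.243 without the 2 farthest lines. Within the series the Pearson value was 0.305 (low) and 0.362 (high). With the probes of each gene averaged it was 0.105 and no longer passed (adjusted p = 0.425 by permutation). Slc4a4, a basolateral bicarbonate cotransporter (9.58 ± 0.78 over all mice), and Slc12a2 had 0.163 (permutation p = 0.122, adjusted p = 0.122) and a Spearman correlation of 0.127 (permutation p = 0.225, adjusted p = 0.225), with 0.126 without the 2 farthest lines. Their value was 0.009 in the low and 0.329 in the high series.

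**Figure D5:**
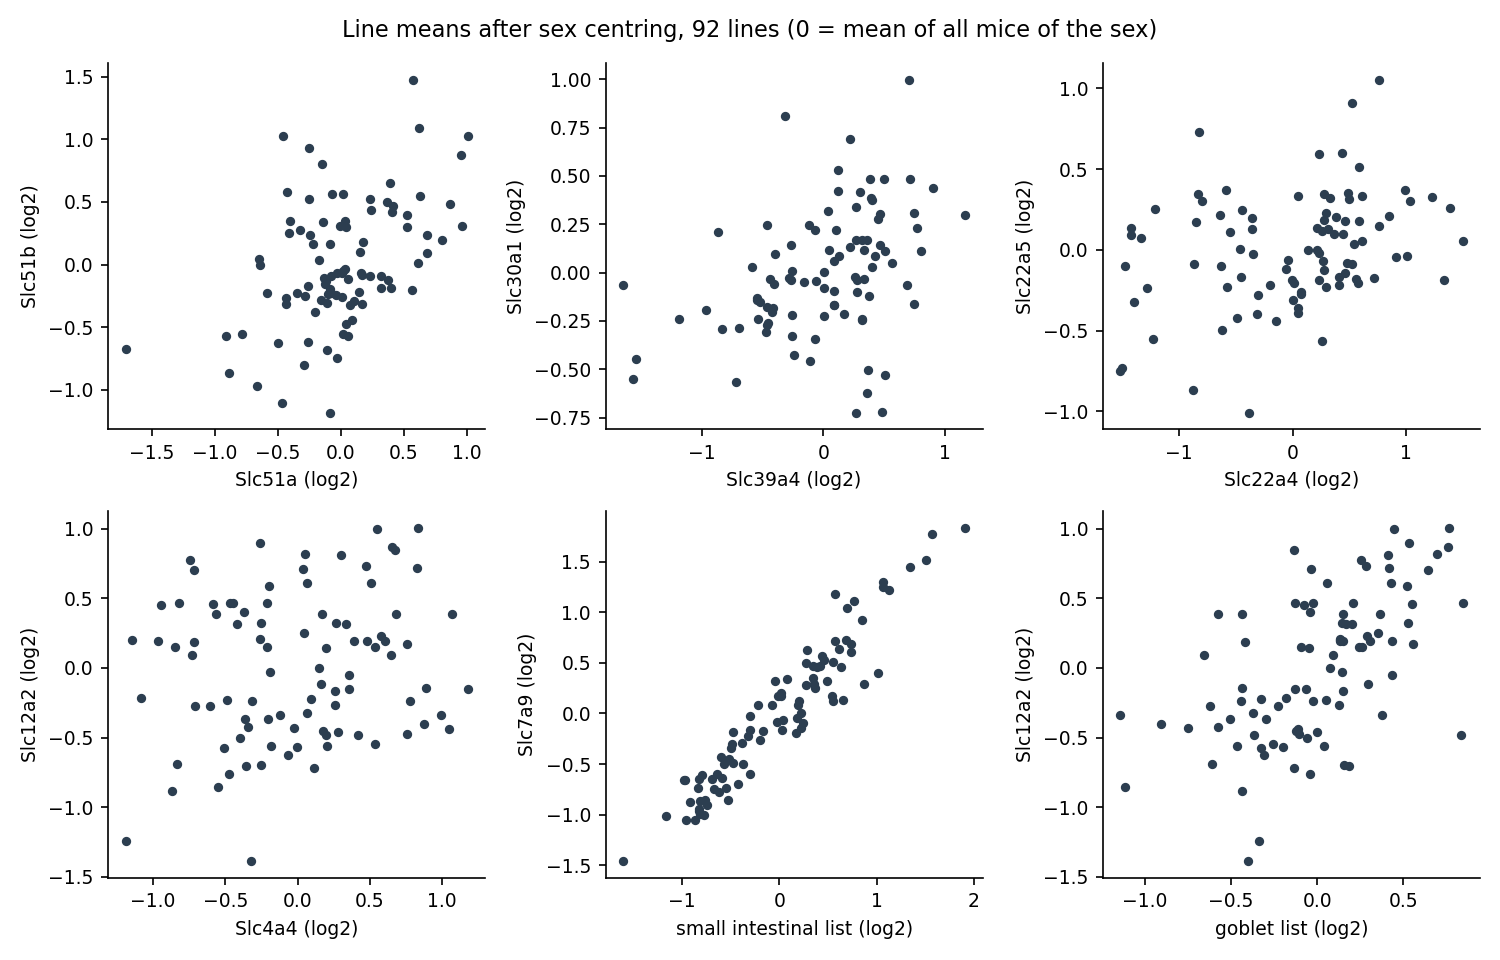
Line means of sex-centred log2 values for 92 lines (points), with 0 at the mean of all mice of the sex. Slc7a9 follows the small intestinal list closely (Pearson 0.95), the pairs Slc51a with Slc51b (0.476) and Slc39a4 with Slc30a1 (0.385) less so, and Slc4a4 with Slc12a2 (0.163) hardly.

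Members were also set beside the cell marker lists over the same 92 line means (924 relations of 132 members and 7 lists, adjusted together). Slc7a9 had a Pearson correlation of 0.95 with the small intestinal list, made of Fabp6, Apoa1, Sis, Alpi, Rbp2 and Anpep (permutation p = 1e-05, adjusted p = 0.000308), and a Spearman correlation of 0.944 (permutation p = 1e-05, adjusted p = 0.000486). It was 0.943 without the 2 farthest lines, 0.951 without the 8 arrays, 0.96 in the low series and 0.938 in the high series. The mean of that list ranged between 5.96 and 12.59 over mice with a median of 7.92. Slc7a9 ranged between 4.67 (6.01 without the 8 arrays) and 11.72 with a median of 7.07. The list had a line ICC of -0.06 and Slc7a9 of -0.08. The part of small intestinal cells or RNA in the spread of Slc7a9 was not tested.

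Slc12a2 had 0.58 with the goblet list (permutation p = 1e-05, adjusted p = 0.000308; Spearman 0.592, permutation p = 1e-05, adjusted p = 0.000486), 0.569 without the 2 farthest lines and 0.591 without the 8 arrays, and the series gave 0.492 (low) and 0.636 (high). The goblet list ranged between 10.22 and 13.59 over mice. Of 13 relations at 0.5 or beyond in size, these of Slc7a9 and Slc12a2 were the only ones that stayed there without the 8 arrays. The goblet list had 1 member at 0.5 or more (0.758%, where 3.01% of the 7471 genes were). The small intestinal list had 1 (0.758%, against 0.321%) and the proliferation list 3 (2.27%, against 3.83%). At -0.5 or below the proliferation list had 1 (0.758%, against 2.89%) and the absorptive colonocyte list 1 (0.758%, against 0.107%). With the absorptive colonocyte list, 6 members had 0.5 or more over all arrays (4.55%, where 2.80% of the 7471 genes did) and 0 without the 8 arrays. Among the 30 members with a line effect, no correlation with a list was beyond 0.41 in size (Slc37a2 with the absorptive colonocyte list), or 0.452 without the 8 arrays.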

How the data were processed

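Intensities of 45281 probes were used as deposited, 1 array per mouse. The authors made these linear intensity values in BeadStudio 3.0.19, also named in the submitters' processing notes, by rank-invariant normalization without background subtraction. The methods' removal of probes over SNPs was not applied to the table. The analysis ran on log2 values with a floor of 16, which 0.761% of values met, and no column was left unused. Genes were named from the platform annotation through RefSeq (GRCm38.p6), 34885 probes with 1 gene and 18 with several, which stayed unnamed. A gene was read at its brightest probe, and all 132 members matched RefSeq.

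Members, classes, pairs, marker lists and tests were chosen with earlier results of these data known, and the classes of Slc66a1, Slc66a2, Slc4a1ap and Slc22a18 were added after the values were seen. The line ICC came from an analysis of variance of sex-centred values with 1 degree of freedom taken for sex, and the sexes were compared in limma 3.58.1 (lmFit, eBayes, R 4.3.3). Correlations used 100000 two-sided permutations, with BH adjustment within each family. Steps between line means and counts of mice beside them were described after seeing the values. Scripts ran with scipy 1.17.1, pandas 2.3.3, numpy 2.4.6 and matplotlib 3.10.9 (Python 3.11.15) and were tested on simulated data. In these the line test called 11 of 50 probes with a planted ICC of 0.3 and 46 of 50 with 0.5. Mice of a line are related and not independent. By Xist and Y-linked genes, 4 mice went against their labelled sex and were kept. No 2 arrays were identical.

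Named members were the 2 highest means of each class, the 20 highest ICCs, the 10 largest SDs, both genes of each pair, those at the edge of the level of 7 and small counts. The number of arrays limits the precision.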

Additional observations from a re-analysis of the deposited data

How the results depend on the processing

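The count of 30 members with a line effect was 31 with a floor of 32, 34 with quantile normalization, 30 with the 5th percentile of each array subtracted, 32 without the 8 arrays, 30 without the 4 mice that went against their labelled sex, 20 in the low number series alone, 25 with probes averaged, 28 with sex and number series centred, 32 with normal scores and 35 adjusted over probes with a mean of 7 or more. Removing 10 principal components gave 72 (29 of the 30 among them), with 56 in place of 28 at an ICC of 0.3 or more, and the high number series alone gave 16, all among the 30, over fewer lines. Other alternatives kept the ICC count between 24 and 33. Of the 30, 12 passed in all 12 of these alternatives and 18 in the 10 that kept both series. With components removed, no share of all genes is given. A rise common to all genes and a rise of the members alone thus cannot be told apart. The cause of the rise with components removed was not tested. Leaving out 3 mice that were extremes of many members, added after seeing the data, gave 35 and lost Slc35c1.

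The sexes gave 0 members in each alternative run but 1 member, Slc51b, with 10 components as covariates, which was added after seeing the data. Components of sex-centred values, as planned, keep the error of the sex means and were not used for the sexes. With the line as a replicate block the count was 0 (consensus correlation 0.0396), and no other call changed. The correlation of Slc22a4 with Slc22a5 was 0.105 with probes averaged, and that of Slc4a4 with Slc12a2 was 0.329 in the high series (adjusted p = 0.0353 by permutation). The number of members was 111 after the 5th percentile was subtracted and 133 without the 8 arrays. Array data carry no depth. The floor was met by 33 values of 18 members, and these values are the least certain. They lay on the 8 arrays, since no member had a mouse at the floor without those arrays. The members concerned included some of high mean, such as Slco2a1 (9.22).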

Other observations

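Members that lie within 1 Mb of each other were compared as a description. Of 12 such neighbours, Slc16a13 and Slc25a11 on chromosome 11 had the highest correlation over mice, 0.369. Slc22a5 and Slc22a4 had 0.347, and Slc11a1 and Slc23a3 (chromosome 1, lower coordinates 750.5 kb apart) had 0.339. No values for members that lie farther apart are given beside these. The X-linked neighbours Slc6a8 (a creatine carrier) and Slc10a3 had -0.445, and Slc35b2 and Slc29a1, with lower coordinates 21.3 kb apart on chromosome 17, had 0.035.

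Further relations with marker lists moved with the 8 arrays. Slc24a3, a potassium-dependent sodium and calcium exchanger, had a correlation of 0.404 with the smooth muscle list over all arrays and 0.598 without the 8. Slc7a7, which exports dibasic amino acids, had -0.479 with the goblet list over all arrays and -0.542 without the 8, and Slc12a7, a potassium and chloride cotransporter, had -0.425 and -0.57. Slc22a18 had 0.591 with the absorptive colonocyte list over all arrays and 0.426 without the 8.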
